A study of Mus musculus with 10 samples.

Results

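The genes described here are 59 of the 14995 genes in the mouse count table: every Hox gene listed there (25: 8 of the Hoxa, 6 of the Hoxb, 7 of the Hoxc and 4 of the Hoxd cluster) and 34 members of 9 other families of positional regulators. These were 7 Tbx, 5 Irx, 4 Pbx, 4 Eya, 3 Meis, 3 Zic, 3 Mab21l genes, 4 genes of the Six2 family, and Pitx1. They were chosen by gene symbol alone, so no measured value decided membership. RNA was sequenced from freshly sorted stromal cells that lacked CD45, TER119 and CD31, the surface markers of leukocytes, erythroid cells and endothelium. The groups were skin Ebf2+ cells (3 libraries) and skin Ebf2- cells carrying CD140a and Sca1, called PαS (3 libraries), both from the dorsal skin of FVB/N mice aged 8 to 12 weeks, and bone marrow mesenchymal stem cells carrying Sca1 and CD51 (4 libraries) from C57BL/6 mice aged 8 to 10 weeks. The labels name no treatment or engineered allele for any group, nor how Ebf2 was read in the sort, nor the bones that gave the marrow. Skin was taken from 3 mice and marrow from 4.

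Hox proteins are homeodomain transcription factors encoded in 4 chromosomal clusters, where the order of the genes matches the order in which they are used from head to tail of the embryo and from shoulder or hip to digits in the limb. Genes at the high-numbered end serve the hind trunk and limbs, and those at the low-numbered end serve the neck and front trunk. Adult fibroblasts and skeletal stromal cells are known to keep such patterns from the embryo. The other families mark position in other ways: Tbx4 and Pitx1 specify the hindlimb and Tbx5 the forelimb, Pbx and Meis proteins bind DNA together with Hox proteins, and proteins of the Six2 family act with Eya coactivators.

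The libraries held between 9.83 and 12.98 M counts for skin Ebf2+, between 11.6 and 14.1 M for skin Ebf2- and between 18.1 and 39.4 M for marrow. A floor of 3 counts corresponded to 0.0901 to 0.349 CPM (counts per M counts of the library, with TMM scaling by edgeR). Tissue, strain, age range and sort markers differed together between skin and marrow and cannot be told apart, and in bulk RNA fewer cells of a type and less RNA per cell cannot be told apart either. The labels say of bone marrow 1 to 3, but not of 4, that an earlier study supplied them. Bone marrow 1 and 4 differed little more than by sampling: the mean chi-square per gene was 3.19 over 11879 genes, against 256 to 580 for the other marrow pairs. They were kept as 2 libraries because that value was above sampling noise, but whether both come from 1 library cannot be told from the sources. Calls of members are therefore given also with both summed into 1 library. Defining mesenchymal markers were high in every library, with a 10-gene sum of 29945 to 129653 CPM. Skin Ebf2- 2 stood apart in leukocyte markers, with a sum of 1210 CPM over 9 measured markers against 4.53 to 105 CPM in the other skin libraries and 9.32 to 28.8 CPM in marrow. It held 61.9 CPM of Ptprc, the gene of CD45, and 708 CPM of the T cell gene Cd3e. Without that library 0 members passed within skin, as with all libraries, and 5 passed in skin Ebf2- against marrow. Leaving out skin Ebf2- 1, or bone marrow 1, 2 or 4, also left 5 there, so that count is not particular to skin Ebf2- 2.

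Hoxa10, Hoxa11, Hoxc10 and the hindlimb factor Tbx4 were read in marrow and hardly at all in skin, Hoxc8, Irx2 and Zic1 were higher in skin, and within skin no member passed the test. Of the 59 members, 55 had enough reads to be tested against marrow (those too low included Hoxb5, Pbx4 and Mab21l4). In skin Ebf2+ against bone marrow, 3 were higher (Hoxc8, Irx2 and Zic1) and 7 were lower (Hoxa10, Hoxa11, Hoxc10, Tbx4, Eya1 and Mab21l2 among them), which is 18.2% of those tested. Of all 14520 genes 0.923% passed, 0.565% higher and 0.358% lower (edgeR quasi-likelihood test, Benjamini-Hochberg adjusted p under 0.05). In skin Ebf2- against bone marrow the same 3 were higher and 6 were lower, Eya1 not among them, which is 16.4% of 55. Of all genes 0.73% passed, 0.393% higher and 0.337% lower. The libraries did not overlap for 18 tested members in the first comparison (32.7%, against 13.7% of all genes), 5 of them higher and 13 lower, where the shares of all genes were 6.07% and 7.66%. In the second they did not overlap for 25 (45.5%, against 18.7%), 9 higher and 16 lower, where the shares of all genes were 9.46% and 9.27%. The members' median log2 fold change was -0.45 for skin Ebf2+ and -0.27 for skin Ebf2- against bone marrow, and 0.09 and 0.06 over all genes. Setting genes with 0 reads in a group at their lower bound left both members' medians as they were. Those genes stayed below the medians, which could therefore not move, so this is no check of them. Their median size of change, without sign, was 2.20 and 2.28 on the log2 scale, against 0.87 and 0.80 over all genes. Both comparisons use the same marrow libraries, so their results are set side by side and are not independent.

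**Figure D1:**
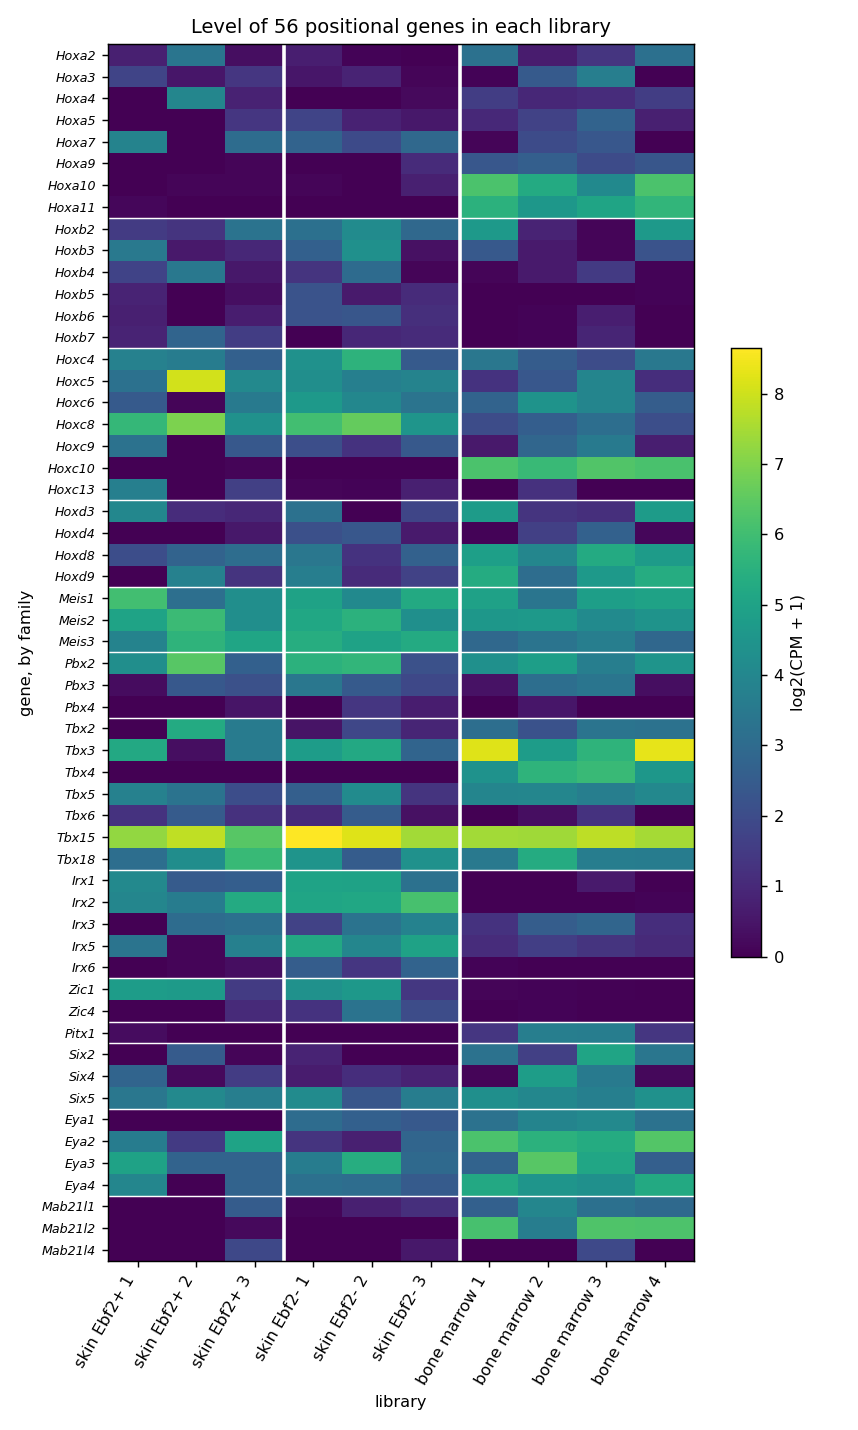
Level of 56 of the genes (rows, grouped by family) in each of the 10 libraries (columns), as log2(CPM + 1). Hoxa10, Hoxa11, Hoxc10, Tbx4 and Mab21l2 are dark in the 6 skin columns and bright in the 4 marrow columns, and Irx2 and Zic1 show the opposite.

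The number of calls depended on the marrow libraries. With bone marrow 1 and 4 summed, 6 members passed in skin Ebf2+ against bone marrow (Hoxa10, Hoxa11, Hoxc10, Tbx4, Irx2 and Mab21l2) and 5 in skin Ebf2- (the same without Hoxa10). Hoxa11, Hoxc10, Irx2 and Mab21l2 were the 4 members that kept the call in both comparisons whichever single library was left out. With the replicate number as a block, 6 and 5 members passed. That block takes bone marrow 4, the sole library of its number, out of the contrast. Leaving out skin Ebf2+ 1 or any single marrow library left 6 calls in the first comparison, and leaving out skin Ebf2- 1 or 2 or bone marrow 1, 2 or 4 left 5 in the second. Other settings set apart bone marrow 4, the library not labelled as from the earlier study. It was taken as the sole marrow library, or a term for the earlier study was fitted. Both leave 1 marrow library to set against skin, so lost calls there cannot be told from lost replication.

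Hoxc10, a high-numbered Hox gene known from hindlimb and lumbar development (chr15:102966796-102971898, plus strand, GRCm38.p6), was high in marrow and all but absent from skin. It stood at 71.8, 56.7, 78.6 and 70.2 CPM in bone marrow 1 to 4, at 0, 0 and 0.0784 CPM in skin Ebf2+ and at 0 in all 3 skin Ebf2- libraries. The lowest marrow library lay far above the single read found in skin. Marrow was 2317 times as high as skin Ebf2+ by counts per depth (95% counting interval 416 to 91528; adjusted p = 0.00146, or 0.00626 with bone marrow 1 and 4 summed). Against skin Ebf2- it was at least 945-fold higher (adjusted p = 0.00118, or 0.00418 summed). Exons annotated to Hoxc10 and Hoxc5 overlap on the same strand, and Hoxc5 did not follow it: Hoxc5 stood at 1.42, 4.10, 14.3 and 1.201 CPM in bone marrow.

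The neighbours Hoxa10 and Hoxa11, which pattern the uterus and the upper and middle limb segments, lie 1.25 kb apart on chromosome 6 and were both high in marrow. Hoxa11 (chr6:52242105-52245810, minus strand) stood at 45.9, 22.7, 32.4 and 50.2 CPM in bone marrow 1 to 4, with 1 read in skin Ebf2+ (0.116 CPM in library 1) and none in skin Ebf2-. The groups were far apart in both comparisons. Marrow was 1214 times as high as skin Ebf2+ (counting interval 218 to 47973; adjusted p = 0.0107, summed 0.0413) and at least 515-fold higher than skin Ebf2- (adjusted p = 0.00593, summed 0.0211). Hoxa10 (chr6:52231197-52240854, minus strand) stood at 73.1, 38.1, 16.04 and 72.3 CPM in bone marrow, at 0, 0.0871 and 0.0784 CPM in skin Ebf2+ and at 0.0732, 0 and 0.707 CPM in skin Ebf2-. Bone marrow 3 was the lowest marrow library and skin Ebf2- 3 the highest skin library, and the groups did not overlap. Against skin Ebf2+ the ratio was 741 (counting interval 205 to 6123; adjusted p = 0.0123, summed 0.0413). Without skin Ebf2+ 1 that adjusted p was 0.0519. Against skin Ebf2- the log2 fold change was -7.57 ± 1.36 (SE; adjusted p = 0.0246), but it missed the threshold with bone marrow 1 and 4 summed (0.0812), with the replicate block (0.0669) and without skin Ebf2- 1 or 2 or bone marrow 1, 2 or 4 (0.0581 to 0.123). Hoxa9, the next gene of the cluster and named after its values were seen, stood at 2.91 to 5.17 CPM in marrow and at 0 to 1.10 CPM in skin, with no overlap and no call (adjusted p = 0.194 and 0.537).

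Reads from the antisense gene Hoxa11os, whose exons overlap those of Hoxa11 on the other strand, followed the same order. Hoxa11os stood at 23.7, 5.22, 6.01 and 22.3 CPM in bone marrow, and skin held 1 read of it in all. No source names the strand setting of the counts, so reads of Hoxa11 and Hoxa11os cannot be told apart.

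Hoxc8, a gene of the mid-trunk at the lower side of Hoxc10 in the cluster (chr15:102990539-102994275, plus strand), had the opposite pattern. It stood at 52.9, 122 and 19.8 CPM in skin Ebf2+, at 64.2, 95.6 and 21.8 CPM in skin Ebf2- and at 3.03, 5.02, 7.69 and 3.25 CPM in bone marrow. Every skin library lay above every marrow library. The log2 fold change was 3.77 ± 0.73 for skin Ebf2+ (adjusted p = 0.0348) and 3.67 ± 0.73 for skin Ebf2- (adjusted p = 0.0423). Neither passed with bone marrow 1 and 4 summed (0.113 and 0.119), with the replicate block (0.166 and 0.173), or without skin library 1 or 2 of the group or any single marrow library (0.0698 to 0.165).

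The remaining 21 Hox genes, of which 20 were tested against marrow, gave no call in either comparison. Hoxd8, a trunk gene of the Hoxd cluster, stood at 28.5, 14.7, 38.5 and 25.8 CPM in bone marrow, at 3.14, 5.75 and 7.45 CPM in skin Ebf2+ and at 9.66, 1.38 and 5.497 CPM in skin Ebf2-. Marrow and skin did not overlap, yet the adjusted p was 0.227 and 0.286. Hoxb2, a gene of the hindbrain and the front end of the Hoxb cluster, split the marrow: 24.4 and 24.2 CPM in bone marrow 1 and 4, against 0.8291 and 0.0901 CPM in bone marrow 2 and 3. Its skin values of 1.48 to 17.1 CPM lay between these. The high-numbered genes Hoxc9, Hoxd9 and Hoxc13 overlapped between skin and marrow, and were named after their values were seen. Hoxc9 ranged from 0 to 8.48 CPM in skin Ebf2+, against 0.489 to 10.9 CPM in marrow. Hoxd9 had the direction of Hoxc10, at 0 to 12.98 CPM in skin and 7.51 to 39.9 CPM in marrow. Its log2 fold change was -2.52 for skin Ebf2+ and -2.44 for skin Ebf2- (edgeR adjusted p = 0.456 and 0.548). Hoxc13 reached 12.4 CPM in skin Ebf2+ and 1.37 CPM in marrow, where it was at 0 in 3 libraries. Hoxc5, named after its values were seen, reached 263 CPM in skin Ebf2+ 2 but 8.25 to 18.2 CPM in the other 5 skin libraries.

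Levels were divided by exon length, so that genes can be compared. The signal of the 25 listed Hox genes then came mainly from the high-numbered ones in marrow and from the others in skin. Hox genes that the count table does not list enter no share. The 7 listed Hox genes numbered 9 to 13 gave 71.9, 70.6, 65.6 and 73.0% of the summed Hox CPM per kb in bone marrow 1 to 4. They gave 16.5, 3.72 and 9.92% in skin Ebf2+ and 9.86, 1.36 and 11.7% in skin Ebf2-. No skin library came near the marrow range. The mean ± SD was 70.3 ± 3.27% (n = 4) in marrow, 10.0 ± 6.38% (n = 3) in skin Ebf2+ and 7.64 ± 5.52% (n = 3) in skin Ebf2-. With bone marrow 1 and 4 summed, a setting added after the data were seen, the marrow mean was 69.6 ± 3.55% (n = 3). Genes numbered 10 to 13 (Hoxa10, Hoxa11, Hoxc10 and Hoxc13) alone gave 51.4 to 62.2% in marrow. They gave 0.0162 to 9.78% in skin Ebf2+ and 0.0343 to 1.66% in skin Ebf2-. The 9.78% was that of skin Ebf2+ 1 and came nearly all from Hoxc13, at 5.05 of a summed 52.2 CPM per kb. Hoxa10, Hoxa11 and Hoxc10 stood there at 0, 0.0508 and 0 CPM per kb. The marrow share thus rested mostly on the called genes Hoxa10, Hoxa11 and Hoxc10. The summed Hox level was 83.3 to 138 CPM per kb in marrow, 33.7 to 164 in skin Ebf2+ and 30.3 to 81.9 in skin Ebf2-. All marrow totals lay above all skin Ebf2- totals, while skin Ebf2+ overlapped with marrow through library 2. By cluster, Hoxc genes gave 62.4 to 81.0% of the Hox signal in skin and 32.3 to 55.6% in marrow, and Hoxa genes gave 1.91 to 12.8% in skin and 23.6 to 37.1% in marrow.

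**Figure D2:**
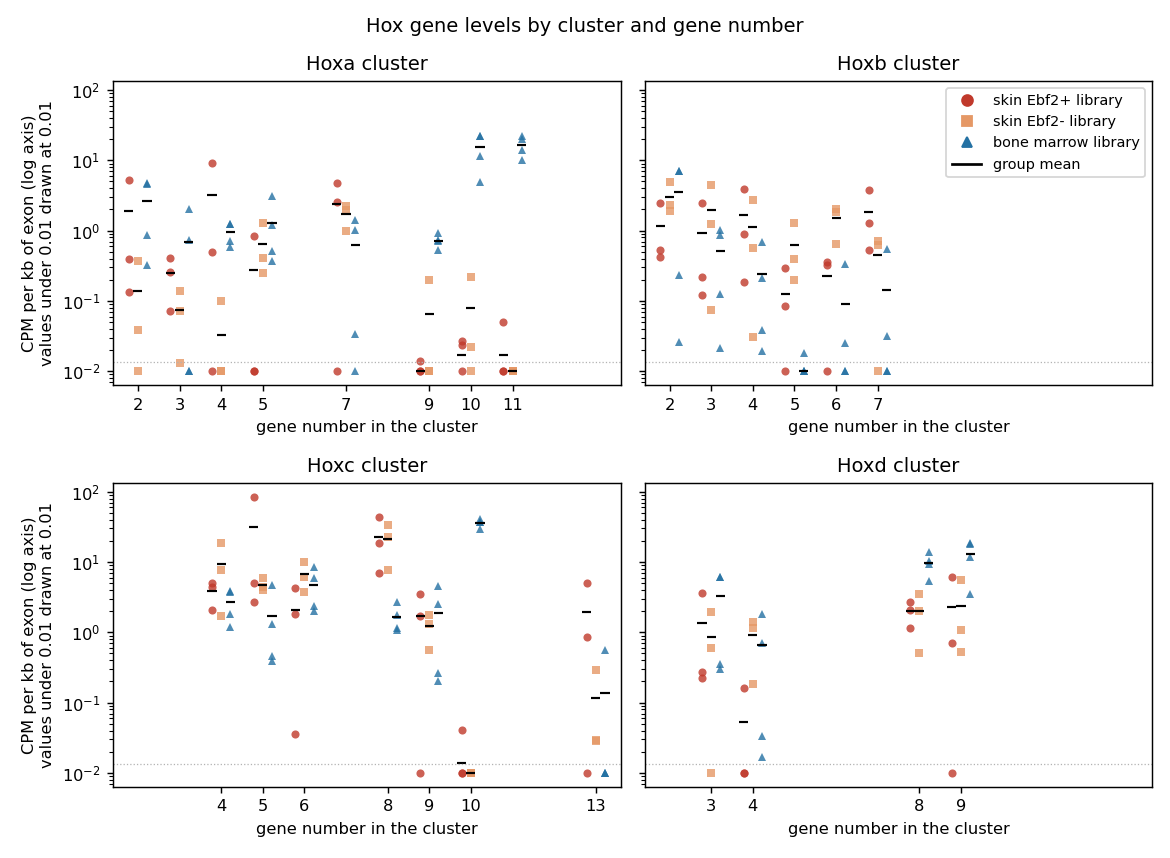
Level of each Hox gene (log axis, CPM per kb of exon) against its number in the cluster, 1 panel per cluster. Points are libraries, black bars are group means, and values under 0.01 are drawn at 0.01. The marrow points rise above all skin points at numbers 10 and 11 in the Hoxa panel and at number 10 in the Hoxc panel, where the skin points lie above marrow at number 8.

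**Figure D3:**
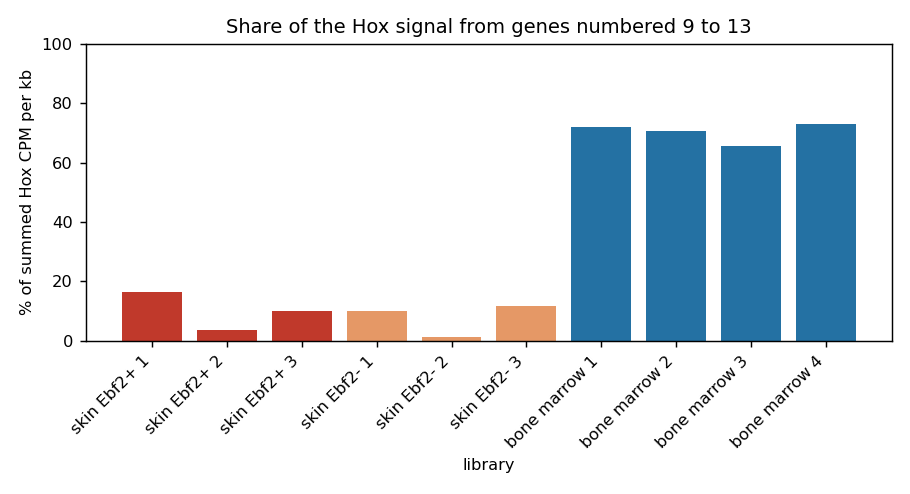
Percent of the summed CPM per kb of the 25 listed Hox genes that came from those numbered 9 to 13, 1 bar per library. The 4 marrow bars stand at 65.6 to 73.0% and the 6 skin bars at 1.36 to 16.5%.

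Counting as detected a gene with at least 1 CPM in every library of a group, 5 of 25 Hox genes were detected in skin Ebf2+, 10 in skin Ebf2- and 11 in bone marrow. Over all 59 members the counts were 21, 32 and 34. The share of all genes detected by this rule was not taken, so these counts do not show a difference particular to the members. The rule asks for 4 libraries in marrow and 3 in each skin group. Every group detected 15 members, among them Hoxc4, Hoxc5, Hoxc8 and Hoxd8. Bone marrow alone detected 11 (Hoxa9, Hoxa10, Hoxa11, Hoxc10, Hoxd3, Tbx2, Tbx4, Pitx1, Six2, Mab21l1 and Mab21l2), and both skin groups but not marrow detected 4 (Hoxb2, Irx1, Irx2 and Zic1). Marrow was sequenced more deeply, and with a rule of 3 counts in every library the Hox counts were 11, 14 and 17. The 14 members that no group detected, 10 of them Hox genes, could still be read in single libraries, and the highest such value was 27.2 CPM of Six4 in bone marrow 2. Of the 7 members with 0 counts in a whole group, Tbx4 was the one at 0 in both skin groups.

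No Pbx or Meis gene tested, the cofactors of the Hox proteins, gave a call. The 3 Meis genes and Pbx2 were detected in every group at 1 CPM or more in each library, Pbx3 in skin Ebf2- alone and Pbx4 in no group (the Pbx genes were named after their values were seen). Meis3 stood at 13.7, 48.3 and 32.6 CPM in skin Ebf2+, at 40.7, 30.7 and 37.8 CPM in skin Ebf2- and at 6.51, 9.07, 11.9 and 6.36 CPM in bone marrow. All skin libraries exceeded all marrow libraries, but the adjusted p was 0.160 and 0.145. Meis2 lay between 16.8 and 58.2 CPM in every library. Of 4 TALE relatives outside the family rule, which are homeodomain proteins of the same class, none passed in any comparison.

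Among the T-box genes, Tbx4 alone passed. Tbx4, the hindlimb T-box factor (chr11:85886367-85916097, plus strand), stood at 20.1, 48.6, 57.3 and 23.0 CPM in bone marrow 1 to 4 and had 0 reads in all 6 skin libraries. It was at least 408-fold higher in marrow than in skin Ebf2+ (adjusted p = 0.0123, summed 0.0356) and at least 508-fold higher than in skin Ebf2- (adjusted p = 0.0107, summed 0.0211). Without bone marrow 3 the adjusted p was 0.0572 and 0.0505, and with the replicate block it was 0.0536 and 0.0468. Its neighbour Tbx2, 44.4 kb away and named after its values were seen, overlapped between skin Ebf2+ and marrow (0 to 38.3 against 3.56 to 9.10 CPM), and skin Ebf2- held 0.366 to 2.62 CPM. Tbx5, the forelimb counterpart and likewise named after its values were seen, was detected in all groups, with 3.14 to 13.02 CPM for skin Ebf2+, 1.49 to 17.2 for skin Ebf2- and 12.1 to 15.3 for bone marrow.

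Pitx1, which acts upstream of Tbx4 in the hindlimb, stood at 1.57, 12.0, 11.5 and 1.55 CPM in bone marrow and had 2 reads in skin, both in skin Ebf2+ 1 (0.232 CPM). Marrow did not overlap with skin, though the values fell well under those of Tbx4, and the adjusted p was 0.192 against skin Ebf2+ and 0.126 against skin Ebf2-. Tbx15, which sets the border between back and belly skin colour in mice, had the highest mean level per kb of all members in each group (40.9 in skin Ebf2+, 77.8 in skin Ebf2- and 49.5 CPM per kb in bone marrow). Its libraries held 149, 227 and 83.6 CPM in skin Ebf2+, with 400, 300 and 175 CPM in skin Ebf2- and 173, 169, 221 and 178 CPM in bone marrow, with overlap throughout.

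High levels per kb were found for other members, which differed by tissue. In bone marrow these included Hoxc10 (mean 36.3 CPM per kb, range 29.7 to 41.2) and Tbx3 (named after its values were seen; 26.2, range 3.98 to 48.1), whose ranges overlap. In skin Ebf2- they included Hoxc8 (21.4, range 7.68 to 33.8) and Irx2 (13.9, range 10.1 to 21.0), also overlapping. In skin Ebf2+ the second place of Hoxc5 (31.0, range 2.67 to 85.3) rested on library 2, and Hoxc8 came next (22.9, range 6.98 to 43.2).

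Irx2, an Iroquois homeodomain factor (chr13:72624430-72634196, plus strand), was read in every skin library. It stood at 14.8, 11.3 and 38.2 CPM in skin Ebf2+, at 33.1, 34.7 and 69.0 CPM in skin Ebf2-, and marrow held a single read, in library 4. Skin Ebf2+ was 2135 times as high as marrow by counts per depth (counting interval 382 to 84430; adjusted p = 0.00146, summed 0.00365, replicate block 0.0107). Skin Ebf2- was 4226 times as high (counting interval 757 to 166998; adjusted p = 0.00104, summed 0.00272, replicate block 0.00643). Among the alternatives run, the call was lost only by a term for the earlier study or with bone marrow 4 as the sole marrow library. Both leave 1 marrow library to set against skin.

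Its neighbour Irx1, 661 kb away, stood at 15.9, 4.53 and 4.94 CPM in skin Ebf2+, at 31.5, 30.5 and 8.40 CPM in skin Ebf2- and at 0, 0, 0.541 and 0 CPM in bone marrow. No skin library overlapped with marrow, but the adjusted p was 0.106 and 0.0698. Without bone marrow 3, the sole marrow library with reads of Irx1, it was 0.0368 and 0.0232, and with bone marrow 1 and 4 summed it was 0.246 and 0.164 (replicate block 0.323 and 0.214). Irx5, of the other Iroquois cluster, stood at 35.9, 14.6 and 30.7 CPM in skin Ebf2- against 1.05 to 2.05 CPM in marrow (adjusted p = 0.135), while skin Ebf2+ overlapped with marrow (0.0871 to 12.6 CPM). All 5 Irx genes had a positive log2 fold change in both comparisons with marrow, and 1 of 5 passed.

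Keratinocyte markers moved with the skin groups. Summed over 13 measured markers they held 311, 22.1 and 1282 CPM in skin Ebf2+, with 1150, 310 and 677 CPM in skin Ebf2-, against 10.6 to 19.8 CPM in marrow, where Krt14, Krt17 and Epcam were at 0. Skin Ebf2+ 2, with a sum of 22.1 CPM, close to that of marrow, held 11.3 CPM of Irx2 and 4.53 CPM of Irx1, the lowest values of the skin Ebf2+ libraries. Skin Ebf2+ 3, with the highest sum, held the highest Irx2 level of that group, 38.2 CPM. Its Irx1 level was 4.94 CPM, against 15.9 CPM in skin Ebf2+ 1. In skin Ebf2- the order of Irx2 differed from that of the markers. Skin Ebf2- 1, with the highest sum of that group, held the lowest Irx2 level (33.1 CPM) and the highest Irx1 level (31.5 CPM). Skin Ebf2- 3, with 677 CPM of the markers, held 69.0 CPM of Irx2 and 8.40 CPM of Irx1. The part of keratinocytes in the level of the Irx genes was not tested.

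Zic1, a zinc-finger factor of dorsal mesoderm and neural tissue (chr9:91358058-91365768, minus strand), also passed as higher in skin. It stood at 26.3, 25.4 and 1.80 CPM in skin Ebf2+, at 19.7, 23.7 and 1.65 CPM in skin Ebf2-, and at 0.0979, 0.0488, 0.0300 and 0 CPM in bone marrow. Libraries 1 and 2 of both skin groups were high and the libraries numbered 3 were low, yet all lay above marrow. The log2 fold change was 8.45 ± 1.51 for skin Ebf2+ (adjusted p = 0.0230) and 8.20 ± 1.496 for skin Ebf2- (adjusted p = 0.0274). Neither passed with bone marrow 1 and 4 summed (0.0536 and 0.0651), with the replicate block (0.0560 and 0.0636), or without any single marrow library (0.0601 to 0.0958). Leaving out skin Ebf2+ 1 gave 0.0584, and leaving out skin Ebf2- 1 or 2 gave 0.0878 and 0.0873. Zic4, which overlaps Zic1 head to head by 138 bp, stood at 1.39, 8.84 and 3.06 CPM in skin Ebf2- and did not pass (adjusted p = 0.150); it was named after its values were seen.

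**Figure D4:**
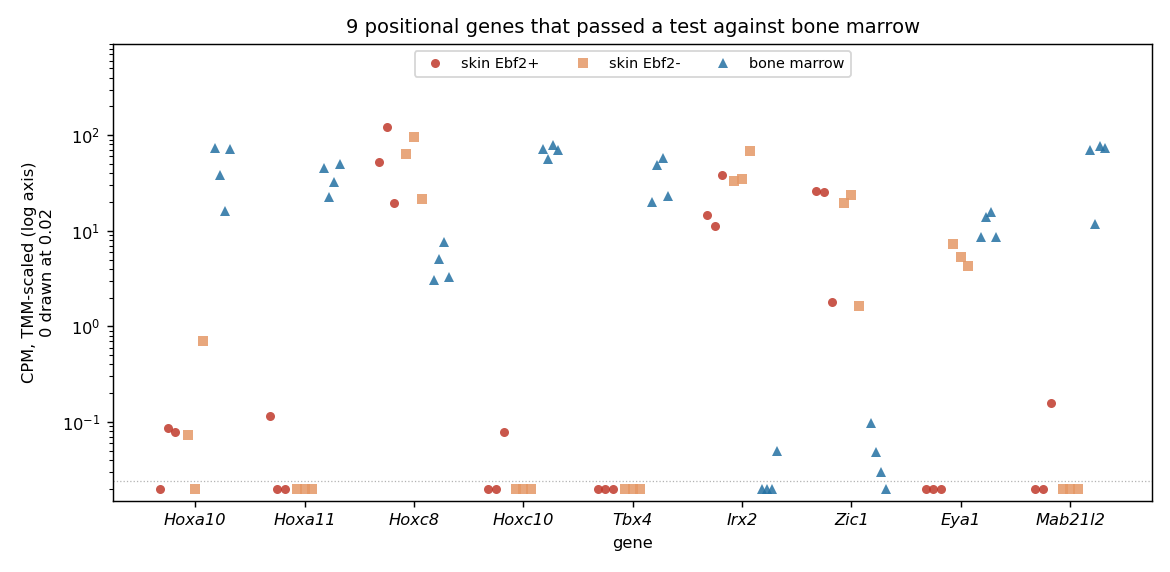
CPM (log axis, 0 drawn at 0.02) of 9 members that passed in at least 1 comparison with marrow, 1 point per library. Marrow lies above skin for Hoxa10, Hoxa11, Hoxc10, Tbx4 and Mab21l2 and below it for Hoxc8, Irx2 and Zic1, while Eya1 is at 0 in skin Ebf2+ alone.

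Mab21l2, a gene needed for eye and ventral body wall formation (chr3:86546050-86548283, minus strand), stood at 69.9, 11.8, 76.3 and 73.7 CPM in bone marrow, with 2 reads in skin Ebf2+ 3 and none in any other skin library. Bone marrow 2 was the lowest marrow library and still far above skin. The ratio to skin Ebf2+ was 990 (counting interval 274 to 8179; adjusted p = 0.0107, summed 0.0356), and marrow was at least 789-fold higher than skin Ebf2- (adjusted p = 0.00593, summed 0.0197). It lies on the opposite strand to Lrba, which did not differ by the test (adjusted p = 0.911 and 0.640).

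Six2, of kidney and facial precursors, stood at 8.61, 2.10, 32.3 and 9.51 CPM in marrow and at 0 to 4.62 CPM in skin, with no call.

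Eya coactivators, the partners of the Six2 family, all had negative log2 fold changes in skin against marrow, and 1 of 4 passed, in skin Ebf2+. Eya1 (chr1:14168953-14311035, minus strand) was at 0 in all 3 skin Ebf2+ libraries, and stood at 7.32, 5.32 and 4.32 CPM in skin Ebf2- and 8.66, 13.9, 15.7 and 8.61 CPM in bone marrow. Skin Ebf2+ was at least 128-fold lower than marrow (adjusted p = 0.0212), while skin Ebf2- had a log2 fold change of -1.05 ± 1.01 (adjusted p = 0.751). The call in skin Ebf2+ was lost with bone marrow 1 and 4 summed (0.0535), with the replicate block (0.0987) and without any single marrow library (0.0517 to 0.0601). Eya2 stood at 72.1, 45.7, 38.6 and 80.2 CPM in marrow, above the 11.3, 1.74 and 31.7 CPM of skin Ebf2+ and the 1.46, 0.691 and 6.12 CPM of skin Ebf2- (adjusted p = 0.355 and 0.0846). Eya4 stood at 19.1 to 37.4 CPM in marrow and 0 to 14.6 CPM in skin, again without a call.

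Cartilage markers moved with the marrow group: summed over 9 measured markers they held 3989 to 17176 CPM in marrow, between 14.6 and 64.5 in the skin Ebf2+ libraries and between 5.32 and 21.5 in the skin Ebf2- libraries. Of 9 osteoblast markers, Ibsp, Bglap and Phex were lower in skin in both comparisons and the other 6 gave no call. Phex, an endopeptidase gene of bone, stood at 28.9 to 126 CPM in marrow and at 0 to 1.32 CPM in skin. The summed osteoblast markers overlapped between skin (2302 to 19702 CPM) and marrow (3200 to 9702 CPM). The part of either marker list in the level of the members that were high in marrow was not tested. Bone marrow 3 held the 17176 CPM and the other marrow libraries 3989 to 4191 CPM, and in bone marrow 3 Hoxa10 was at its lowest and Tbx4 at its highest.

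To show what the start sites of some members with a wide tissue contrast look like, the 250 bases before the RefSeq start are given for 2 members high in marrow and 1 high in skin (GRCm38.p6, 5′ to 3′ in the direction of the gene; capitals mark a match to TATAAA on either strand). They lie at chr6:52245811-52246060 on the minus strand (Hoxa11), chr11:85896515-85896764 on the plus strand (Tbx4) and chr13:72628570-72628819 on the plus strand (Irx2). The Tbx4 and Irx2 windows precede start sites within the annotated gene spans, 10.4 and 4.39 kb after the first base of the gene.
Hoxa11: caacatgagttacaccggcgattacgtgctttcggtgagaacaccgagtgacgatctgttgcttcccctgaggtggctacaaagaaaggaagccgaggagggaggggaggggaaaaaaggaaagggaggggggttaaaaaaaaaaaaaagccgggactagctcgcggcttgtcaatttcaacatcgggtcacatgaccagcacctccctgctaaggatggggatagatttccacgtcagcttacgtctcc
Tbx4: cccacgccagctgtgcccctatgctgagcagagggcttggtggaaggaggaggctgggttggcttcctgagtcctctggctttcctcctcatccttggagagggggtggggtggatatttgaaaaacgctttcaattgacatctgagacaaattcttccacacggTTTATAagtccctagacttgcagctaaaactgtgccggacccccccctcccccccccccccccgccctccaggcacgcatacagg
Irx2: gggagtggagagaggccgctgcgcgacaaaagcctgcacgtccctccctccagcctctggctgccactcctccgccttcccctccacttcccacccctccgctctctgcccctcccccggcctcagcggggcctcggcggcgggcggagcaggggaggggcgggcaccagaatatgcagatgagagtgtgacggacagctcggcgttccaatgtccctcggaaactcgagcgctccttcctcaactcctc
Hoxc10 and Hoxc8, for which no promoter entry was matched, are named only. Mab21l2, Hoxa10 and Zic1 also passed against marrow and have promoter entries, but these are not shown. RefSeq sequences of 300 bases, from 250 before to 50 after the start, matched 32 of the 59 members with 36 promoters. TATAAA was found in 6 of these 36 and in 13.62% of all 32851 promoters, on either strand. TGACAG, a core of Meis binding sites, was found in 8 of 36 and in 19.18% of all. AGGTGT, a T-box binding motif, was found in 3 of 36 and in 13.74% of all, and TGATTNAT, a joint Pbx and Hox motif, in 2 of 36 and in 3.221% of all. Of the 3 promoters shown, that of Tbx4 held TATAAA and none held another of these motifs. CpG pairs numbered 15 in the Hoxa11, 8 in the Tbx4 and 25 in the Irx2 promoter, where the median was 15 over the members' promoters and 7 over all promoters. No motif was tested against the tissue difference.

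Within skin, no member of 41 tested differed between Ebf2+ and Ebf2- cells at an adjusted p under 0.05, and 0% of all 13477 genes tested did (edgeR; lowest adjusted p among members 0.873). At an unadjusted p under 0.05, 3 members passed, where 2.55% of all genes did. Without overlap between the groups were 5 tested members (12.2%, against 6.72% of all genes), all lower in Ebf2+ cells. Of all genes, 3.72% were lower and 3% higher without overlap. The 5 were Hoxb6, Irx5, Irx6, Zic4 and Eya1, of which Hoxb6, Irx6 and Zic4 were named after their values were seen. Eya1 had no read in 3 skin Ebf2+ libraries against 100, 77 and 55 counts in skin Ebf2-, at least 61.8-fold lower (unadjusted p = 0.00437, edgeR adjusted p = 0.873, replicate block 0.965). DESeq2 called Eya1 and no other member (adjusted p = 0.00573), where it called 0.861% of all genes. The authors' deposited table also calls Eya1 alone of the members, and 135 of 14506 genes in all (0.931%). Irx6 stood at 0, 0.0871 and 0.235 CPM in Ebf2+ and at 4.83, 1.59 and 5.73 CPM in Ebf2- cells (unadjusted p = 0.0238). All 5 Irx genes had a negative log2 fold change. Mural cell markers moved with the Ebf2+ group, at 1120 to 4661 CPM against 327 to 729 CPM summed over 12 markers, and their part was not tested. The leukocyte markers of skin Ebf2- 2, given above, lay on the Ebf2- side, and their part was not tested either.

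**Figure D5:**
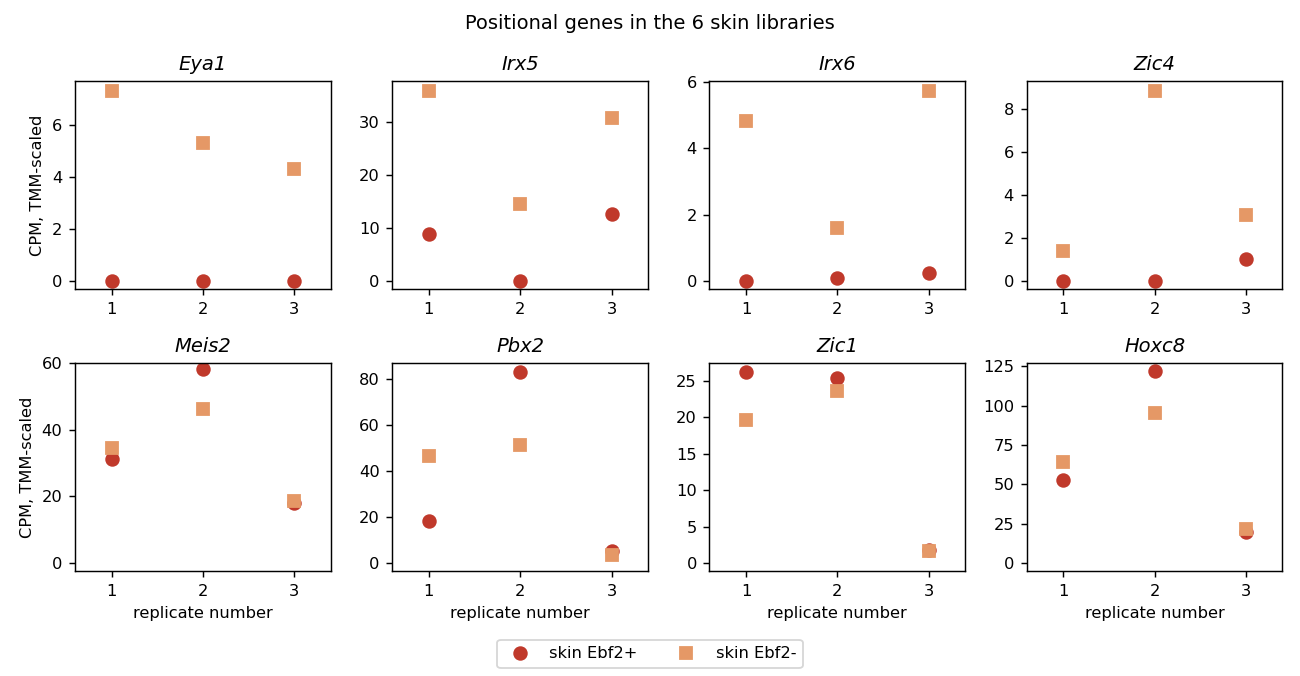
CPM of 8 members in the 6 skin libraries by replicate number (circles Ebf2+, squares Ebf2-). In the upper row Ebf2- lies above Ebf2+ for every library pair, and in the lower row the libraries numbered 3 of both groups are the lowest.

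The skin libraries numbered 3 stood apart from the other 4 in either group. Of 41 members, 8 were lower in both libraries numbered 3 than in all other skin libraries (19.5%, where 18.3% of all genes were), and 1, Irx2, was higher (2.44%, where 21.5% of all genes were). The 8 included Hoxb4, Hoxc4, Hoxc8, Meis2, Pbx2, Tbx5 and Zic1, and the lower share was near that of all genes. Pbx2, named after its values were seen, stood at 5.25 and 3.38 CPM in the libraries numbered 3 and at 18.1 to 82.9 CPM in the other skin libraries. Without both libraries numbered 3, 10 members passed in skin Ebf2+ against marrow and 9 in skin Ebf2-.

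Of 61 other patterning transcription factors listed for limb and trunk, 34 were in the table and 33 were tested against marrow. In skin Ebf2+ 1 was lower (Dlx5) and 0 higher, and in skin Ebf2- 3 were lower (Dlx5, Foxc1 and Meox2) and 0 higher. Dlx5, a homeodomain factor of bone-forming cells, stood at 69.5, 50.9, 28.5 and 71.3 CPM in marrow and at 0 to 0.512 CPM in skin (adjusted p = 0.0107 and 0.0126). Of 32 Polycomb and trithorax genes, which encode the chromatin complexes that keep Hox genes off or on, none passed in any comparison. Their median log2 fold change was -0.13 and -0.08 against marrow, where it was 0.09 and 0.06 over all genes.

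The authors' deposited table of comparisons calls 16 members in skin Ebf2+ against bone marrow (5 higher and 11 lower), where it calls 1150 of 13949 genes (8.24%), and 18 in skin Ebf2- (8 higher and 10 lower), where it calls 816 of 14506 (5.63%). DESeq2 on the counts called 16 and 18 members, where it called 7.61% and 5.48% of all genes.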

How the data were processed

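Per the labels' protocols, SMART-Seq v4 cDNA of sorted mouse cells became Nextera XT libraries, read as 75 bp single ends. Per the submitters' processing notes, the tools were STAR 2.6.1d, featureCounts, DESeq2, FastQC 0.11.8 and MultiQC 1.7. The deposited raw counts are whole numbers per Entrez gene in 1 column per library, on GRCm38 per the file headers, with no replicates pooled. The authors' deposited log2 fold changes and adjusted p-values were used only for the counts of calls credited to that table. The 10 columns of normalized counts were not used. The number that follows S in column names was read as the replicate number, a link that the labels do not state.

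Genes were matched to RefSeq GRCm38.p6 by Entrez number (59 of 59 members) and to GENCODE vM21 exon unions for lengths. Exons of 24 members overlap those of another gene, and reads there cannot be told apart. Counts were tested over all genes with edgeR 4.0.16 in R 4.3.3 (quasi-likelihood test, TMM scaling, filterByExpr, two-sided, Benjamini-Hochberg over all genes tested, adjusted p under 0.05). The 6 skin libraries gave the comparison within skin, and all 10 libraries in 3 groups gave those with marrow. An SE is the size of the log2 fold change divided by the square root of F. Against a group with 0 reads the fold is a bound from 3 counts over the group, and with 1 to 3 reads a ratio with its exact 95% interval is given. Bounds and intervals cover counting error only, and amplified reads are not independent molecules. Nothing ties each library to its own mouse, so p-values measure the spread between these libraries.

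Members and lists were chosen with earlier results of these data known. Named were members that passed, the highest member of each family by mean CPM, members without overlap between groups at 10 CPM or more, and members with 0 counts in a group and at least 5 CPM in another, 22 in all; some members enter the counts but are not reported here by name, and any other member was named after its values were seen. Equal replicate numbers were checked for pairing. Across 14520 genes the deviations from the group means correlated at 0.181, 0.221 and 0.599 between skin libraries of equal number. Between unequal numbers they correlated at 0.142 and 0.147 for numbers 1 and 2, and at -0.371 to -0.273 where 1 library was numbered 3. Only the pair numbered 3 stood out, and pairing of numbers 1 and 2 was hardly told apart from no pairing. The main test within skin used the group alone and ignored any pairing, and the replicate block was an alternative. Skin and marrow come from different mice and are not paired. Alternatives covered scaling, filters, DESeq2 1.42.0, limma-voom (limma 3.58.1), the replicate block, each library left out and the treatment of bone marrow 1 and 4.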

Additional observations from a re-analysis of the deposited data

Results flagged for a closer look

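Of 56 members examined, 13 had 1 of the 4 marrow libraries far from the other 3 by a gap criterion. Its chance rate of about 1 in 20 groups holds for continuous, normally spread values. It always flags a member read in 1 marrow library alone, so 13 of 56 cannot be set against that rate. The likeness of bone marrow 1 and 4 was not allowed for in that criterion. Bone marrow 2 stood low for Mab21l2 (11.8 CPM, against 69.9 to 76.3 in the others) and Meis1 (9.32 CPM, against 27.9 to 30.7). Standing high was bone marrow 2 for Tbx18, a T-box factor of mural and sinus node precursors, with 39.4 CPM against 10.4 to 11.6.

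The other 10 were members read in marrow at low levels. Bone marrow 3 stood high for Mab21l4 (2.79 CPM), Hoxb7 (0.841 CPM), Hoxb6 (0.661 CPM) and Irx1 (0.541 CPM), and bone marrow 2 for Hoxc13 (1.37 CPM), Pbx4 (0.439 CPM) and Zic4 (0.0488 CPM). Single reads set apart bone marrow 4 for Hoxb5 (0.05004 CPM) and Irx2 (0.05004 CPM) and bone marrow 1 for Irx6 (0.0489 CPM).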

How the results depend on the processing

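Within skin the count of members that passed was 0 in each fit other than DESeq2, which called 1 (Eya1). In skin Ebf2+ against marrow, the count of 10 became 16 with DESeq2, 6 with the replicate block and 6 with bone marrow 1 and 4 summed. It became 1 without both of them, 6 with bone marrow 1 to 3 alone and 6 to 10 when single libraries were left out. In skin Ebf2- the count of 9 became 18, 5, 5, 2, 5 and 5 to 8 in that order. A term for the earlier study and bone marrow 4 alone each leave 1 marrow library to set against skin, so their counts are not given. With bone marrow 1 and 4 summed, the replicate block gave 7 and 4 calls and DESeq2 gave 12 and 15; these combined settings were chosen after seeing the data. Scaling, filters, limma-voom, leaving out the skin libraries numbered 3 and fitting 2 groups alone kept each count within 1.5 times. With a floor of 3 counts the Hox genes detected rose from 5 to 11 in skin Ebf2+ and from 11 to 17 in marrow. In counts not divided by length, listed Hox genes numbered 9 to 13 gave 65.7% of the listed Hox signal in marrow. They gave 8.46% in skin Ebf2+ and 6.61% in skin Ebf2-. The causes were not tested. No call changed sign under the alternatives run. The block ties marrow libraries to skin libraries of equal number, which nothing pairs. Only marrow has a library numbered 4, so with bone marrow 1 and 4 kept apart the block also takes bone marrow 4 out of the contrast. With 3 or 4 libraries a group, a member that missed the threshold is not shown to be alike between groups.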

Other observations

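Several members that were not called separated bone marrow 1 and 4 from bone marrow 2 and 3; they were picked after their values were seen. Tbx3, a T-box factor of limb and mammary development, stood at 300.0 and 319 CPM in bone marrow 1 and 4 and at 26.3 and 48.6 CPM in bone marrow 2 and 3. Hoxd3 stood at 25.7 and 25.9 CPM against 1.46 and 1.26 CPM, and Hoxb2 showed the same order. Six4, a homeodomain factor of the Six2 family, had the opposite order, with 0.0979 and 0.150 CPM in bone marrow 1 and 4 and 27.2 and 10.8 CPM in bone marrow 2 and 3. Eya3 stood at 5.77 and 5.15 CPM against 84.1 and 33.5 CPM in the same order. These values describe single libraries and were not tested.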
